A study of Mus musculus with 12 samples.

Results

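The retinoic acid genes described here are a listed set of 9: the retinaldehyde dehydrogenases Aldh1a1, Aldh1a2 and Aldh1a3, the cellular carriers Crabp1 and Crabp2, the degrading enzyme Cyp26b1, and the nuclear receptors Rara, Rarb and Rarg. They were found among the 50600 Ensembl gene identifiers of the deposited count tables by mapping identifier to symbol, and the rule uses no measured value. All 9 had enough counts to be tested. Cortical RNA of C57BL/6 mice was sequenced at 3 embryonic ages (E11, E13, E17) and 1 day after birth (P1), with 3 libraries per age. Every library, called A, B or C within its age, held the cerebral cortex of a single animal, and no 2 animals of an age shared a litter. The labels give no treatment and no genotype beyond the strain, and they do not give the sex of the animals. The subject of the series, by its title, is the handling of zinc in the forming cortex.

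Retinoic acid is made from vitamin A: retinol is oxidised to retinal, and the retinaldehyde dehydrogenases of the Aldh1a family oxidise retinal irreversibly to retinoic acid. Crabp1 and Crabp2 bind retinoic acid in the cytoplasm, Crabp2 delivering it to the nucleus, and enzymes of the Cyp26 family break it down. In the nucleus it binds the receptors Rara, Rarb and Rarg, which act on DNA as partners of the retinoid X receptors. In the embryonic mouse forebrain, the meninges around the cortex are known as a source of retinoic acid through Aldh1a2.

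The data are read counts of poly(A)+ RNA from stranded libraries sequenced as 75-base single reads. Totals were 28173745 to 45858712 counts per library. Levels are CPM, in which a gene's counts are set against the size of the library after TMM scaling, and levels of different genes are compared only as CPM per kb of exon. A gene is said to have risen or fallen where edgeR's quasi-likelihood test gave a Benjamini-Hochberg adjusted p of 0.05 or less over all 17847 genes tested, and fold changes are fitted log2 values of the later minus the earlier age, with their standard error (SE). As a check of the tissue label, the summed level of 6 markers of cortical excitatory neurons was 248 to 293 CPM at E11, 938 to 1300 CPM at E13, 2150 to 2540 CPM at E17 and 1810 to 1920 CPM at P1, with none at 0. Genes of tissues next to the cortex were also present: the summed level of 9 meningeal fibroblast markers was 1190 to 1440 CPM at E11, 796 to 1090 CPM at E13, 14.5 to 16.9 CPM at E17 and 14.2 to 53.3 CPM at P1. None of these 9 markers was at 0 at any age. In bulk tissue, fewer cells of a type and less RNA per cell cannot be told apart.

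The start-site sequences of Rarb and Cyp26b1 are shown because the DNA element of the receptors is well known from the Rarb promoter. The receptors bind pairs of a 6-base element, here searched as AGGTCA, its variant AGTTCA, the form GGGTCA or the form GGTTCA, both copies in the same orientation with 5 bases between them, on either strand. In the 300 bases around the start of transcription (250 before it and 50 after it), 32 of 32851 mouse windows held such a repeat, which is 0.0974%. RefSeq windows on GRCm38.p6 were found for 7 of the 9 genes, 12 windows in all. Among them the repeat was found in Rarb alone, on the strand shown, 53 to 37 bases before the start, and it is in capitals below. The window lies at chr14:16575427-16575726 on the minus strand. The window of Cyp26b1, at chr6:84593761-84594060 on the minus strand, is shown beside it as that of the member that rose most before birth, and holds no such repeat. A match of letters is a description and not a measured binding site.
Rarb: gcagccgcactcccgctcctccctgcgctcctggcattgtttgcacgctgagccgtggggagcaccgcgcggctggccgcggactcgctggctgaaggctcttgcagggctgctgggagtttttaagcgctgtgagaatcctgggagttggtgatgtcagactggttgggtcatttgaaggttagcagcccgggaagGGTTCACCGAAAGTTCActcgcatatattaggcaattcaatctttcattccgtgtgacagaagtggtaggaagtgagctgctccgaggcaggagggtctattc
Cyp26b1: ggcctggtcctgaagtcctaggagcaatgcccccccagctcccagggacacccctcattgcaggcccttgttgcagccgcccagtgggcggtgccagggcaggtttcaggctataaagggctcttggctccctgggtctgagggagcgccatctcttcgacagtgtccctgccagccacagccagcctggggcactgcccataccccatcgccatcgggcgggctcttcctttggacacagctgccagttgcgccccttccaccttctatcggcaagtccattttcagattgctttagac

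All 9 genes differed across the 4 ages, against 90.2% of all genes tested, so a difference of this kind was the common state. The 9 became 8 with no filter on low counts, upper-quartile factors, the replicate block or scaling by library size alone, and when any single library other than E11 A, E11 C or P1 B was left out. The members moved in different directions and at different ages. Aldh1a2 and Crabp2 fell steeply between E13 and E17, Cyp26b1 rose at the same step, Aldh1a1 and Aldh1a3 rose between E17 and P1, and Rara and Rarg differed by at most 0.67 on the log2 scale in any pair of ages.

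**Figure D1:**
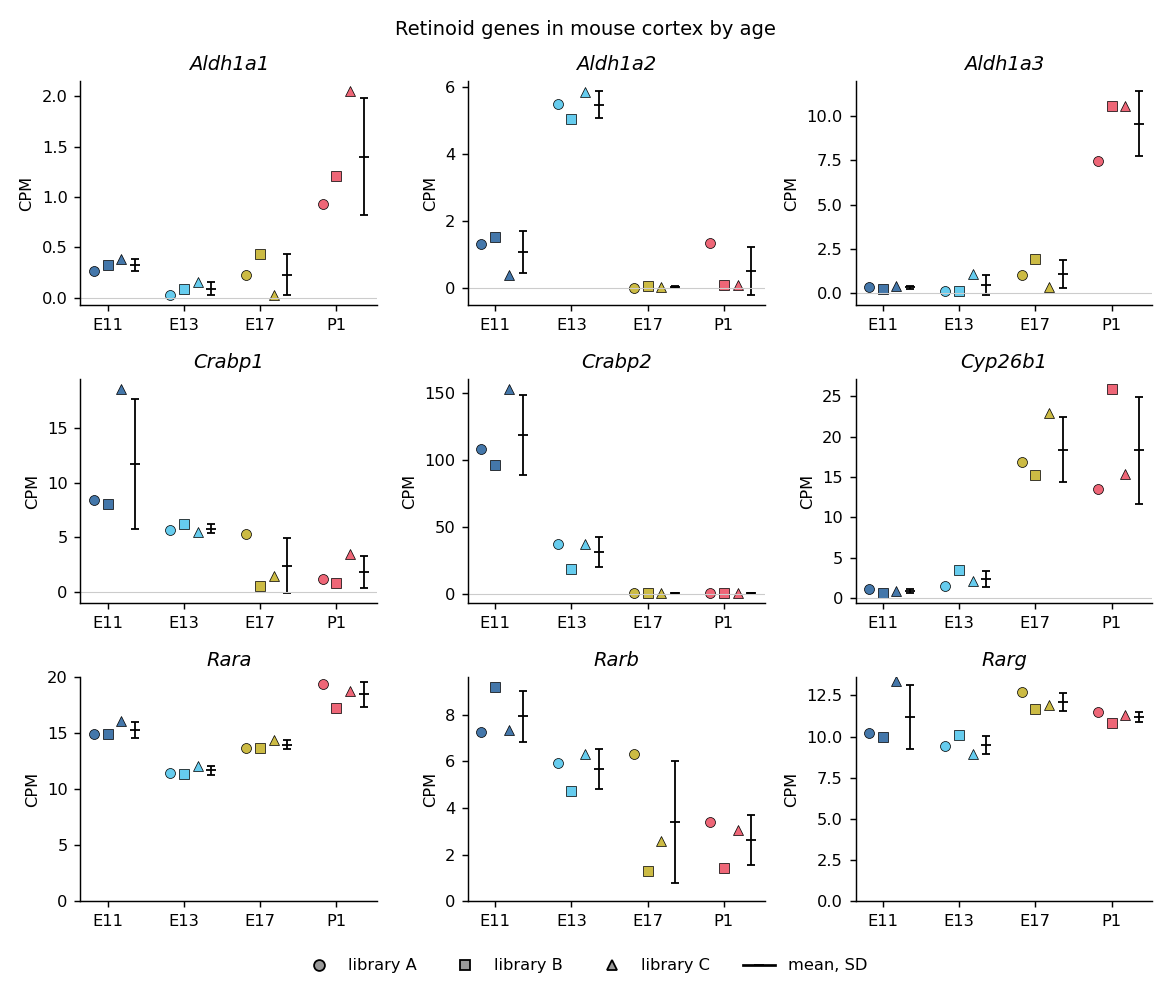
Level of each of the 9 genes in CPM (vertical axes, each panel on its own scale) at the 4 ages. Each symbol is 1 library (A circle, B square, C triangle), and the dash and bar beside them are the mean and SD of 3 libraries. Crabp2 stands at 0.265 to 0.799 CPM at E17 and P1, against 96.5 to 153 CPM at E11, while Cyp26b1 stands at 13.5 to 25.9 CPM at E17 and P1.

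Among the synthesising enzymes, Aldh1a2 (ENSMUSG00000013584, chromosome 9) made up most of the summed dehydrogenase level per kb of exon at E11 and E13. It was at 1.33, 1.53 and 0.382 CPM in E11 libraries A, B and C, at 5.5, 5.05 and 5.86 CPM at E13, at 0, 0.0716 and 0.0469 CPM at E17 and at 1.36, 0.103 and 0.0955 CPM at P1. The E13 libraries lay above all others, the E17 libraries held 0, 2 and 2 counts, and P1 library A, with 51 counts, stood apart from the 4 counts in each of B and C. The gene rose at E13 against E11 (mean 5.47 ± 0.406 against 1.08 ± 0.614 CPM, SD, n = 3 each; log2 change 2.32, SE 0.66, adjusted p = 0.0161). It fell at E17 against E13 (0.0395 ± 0.0364 against 5.47 ± 0.406 CPM; log2 change -6.94, SE 1.07, adjusted p = 0.000123). With 0, 2 and 2 counts at E17, Aldh1a2 passed the filter on low counts only through libraries of other ages. This fall is therefore given as a description.

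The level of Aldh1a2 at P1 rested on library A. The log2 change of Aldh1a2 at P1 against E17 was 3.51 with an adjusted p of 0.0588, and without P1 A it was 1.22 (adjusted p = 0.383). It passed the threshold without P1 B (4.02, adjusted p = 0.0265) or P1 C (4.04, adjusted p = 0.0261), with DESeq2 (3.70, adjusted p = 0.00769) and with the filter of 1 CPM in 3 libraries (3.53, adjusted p = 0.0487). At P1 against E11 it was -1.10 with an adjusted p of 0.208, -3.38 with an adjusted p of 0.000284 without P1 A, and -1.93 with an adjusted p of 0.0452 with limma-voom. Over all alternatives that change ran from -3.38 to -0.56, with adjusted p up to 0.503. The meningeal marker sum was 53.3 CPM in P1 A, against 14.2 and 16.0 CPM in P1 B and C, and its part in the Aldh1a2 level was not tested. The rise at E13 against E11 lost its call with no filter on low counts (2.32, adjusted p = 0.06) and when library C of E11, C of E13 and A of E17 were all left out (1.88, adjusted p = 0.105).

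Aldh1a3 (ENSMUSG00000015134, chromosome 7), another dehydrogenase of the family, was highest after birth. It was at 0.355, 0.206 and 0.382 CPM in the E11 libraries, at 0.106, 0.112 and 1.08 CPM at E13, at 1.02, 1.9 and 0.328 CPM at E17 and at 7.48, 10.6 and 10.6 CPM at P1. Every P1 library lay above every library of the 3 embryonic ages, which overlapped each other. Aldh1a3 rose at P1 against E17 (9.59 ± 1.83 against 1.08 ± 0.786 CPM; log2 change 3.22, SE 0.61, adjusted p = 0.00135). Its ratio of means at P1 over E11 was 30.5 (log2 change 4.92, SE 0.71, adjusted p = 5.85e-05).

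Between the embryonic ages Aldh1a3 did not pass the test, and the values depended on single libraries. At E17 against E13 the log2 change was 1.31 (adjusted p = 0.156). It was 3.20 (adjusted p = 0.00366) without E13 C, 1.82 (adjusted p = 0.0449) without E17 C and 0.59 (adjusted p = 0.559) without E17 B. At E17 against E11 it was 1.71 (adjusted p = 0.0819), and 2.22 (adjusted p = 0.0216) without E17 C and 1.72 (adjusted p = 0.0421) with the libraries of those ages alone. Over all alternatives that change ran from 0.99 to 2.22, with adjusted p up to 0.337. Aldh1a3 stood at 1.08 CPM in E13 C, against 0.106 and 0.112 CPM in A and B. In that library 10 genes of interneurons and the ventral telencephalon summed to 64.3 CPM, against 21.4 and 28.6 CPM in E13 A and B. In E11 C they summed to 46 CPM, against 7.65 and 4.01 CPM in E11 A and B. Aldh1a3 was at 0.382 CPM in E11 C, against 0.355 and 0.206 CPM in A and B. The part of these cells in the Aldh1a3 values was not tested.

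Aldh1a1 (ENSMUSG00000053279, chromosome 19) was highest at P1. It was at 0.266, 0.324 and 0.382 CPM in the E11 libraries, at 0.0265, 0.0842 and 0.154 CPM at E13, at 0.227, 0.43 and 0.0234 CPM at E17 and at 0.932, 1.21 and 2.05 CPM at P1. The P1 libraries lay above all others, and no embryonic library held more than 12 counts. The log2 change of Aldh1a1 was 2.77 at P1 against E17 (SE 0.56, adjusted p = 0.00121), and it was 3.70 without E17 B and 2.08 without E17 C. At P1 against E11 it was 2.11 (SE 0.51, adjusted p = 0.00171), and at E13 against E11, where all E13 libraries lay below the E11 libraries, -1.88 (adjusted p = 0.0741) and with DESeq2 -1.91 (adjusted p = 0.0422). The change at E13 against E11 ran from -2.49 to -1.43 over all alternatives, with adjusted p up to 0.2. At E17 against E13 the change of Aldh1a1 was 1.22 (adjusted p = 0.217), and 1.91 (adjusted p = 0.0225) without E17 C. Over all alternatives that change ran from 0.28 to 1.91, with adjusted p up to 0.801. The near-identical neighbour gene of Aldh1a1, Aldh1a7, with which reads could be shared, had 31 counts over the 12 libraries, 12, 2 and 3 of them at P1.

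Per kb of exon, the summed level of the 3 dehydrogenases was 0.611 ± 0.247 CPM at E11, 2.53 ± 0.297 CPM at E13, 0.298 ± 0.218 CPM at E17 and 2.59 ± 0.177 CPM at P1 (SD, n = 3 each). The sums at E13 and P1 were close while the genes behind them differed. Aldh1a2 made up 73.0 ± 18.9%, 95.9 ± 4.52%, 9.14 ± 11.1% and 9.39 ± 13.4% of the sum at the 4 ages in order. Aldh1a3 made up 13.8 ± 10.1%, 3.4 ± 4.15%, 78.0 ± 4.6% and 79.8 ± 11.2%. At P1 the share of Aldh1a2 was 24.9% in library A, against 1.75% and 1.53% in B and C. The share of Aldh1a2 was at most 24.9% in each E17 and P1 library, against at least 51.3% in each E11 and E13 library.

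**Figure D2:**
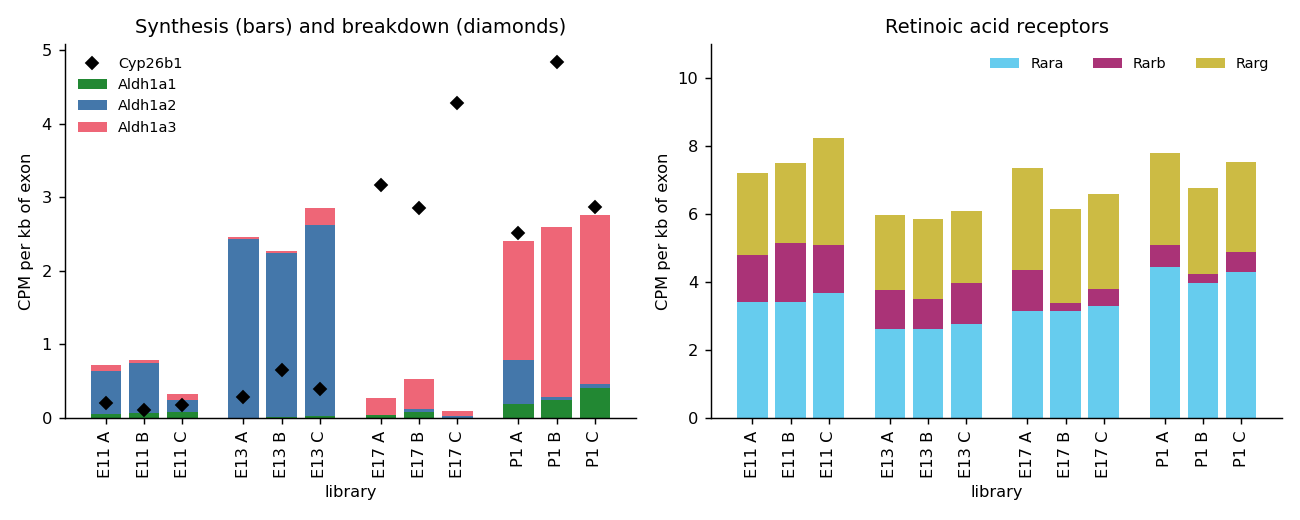
Levels in CPM per kb of exon (vertical axes) in each of the 12 libraries. On the left, stacked bars are the 3 dehydrogenases and diamonds are Cyp26b1; on the right, stacked bars are the 3 receptors. The dehydrogenase bars are mostly Aldh1a2 at E11 and E13 and mostly Aldh1a3 at E17 and P1, and the receptor sums stay between 5.86 and 8.24 CPM per kb.

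Of the carriers, Crabp2 (ENSMUSG00000004885, chromosome 3) had the widest range of all 9 genes. It was at 108, 96.5 and 153 CPM in the E11 libraries, at 37.2, 18.1 and 37.3 CPM at E13, at 0.265, 0.609 and 0.539 CPM at E17 and at 0.799, 0.619 and 0.525 CPM at P1. E11, E13 and the later ages formed separate ranges, and E17 and P1 overlapped. Crabp2 fell at E13 against E11 (30.9 ± 11.1 against 119 ± 30.0 CPM; log2 change -1.95, SE 0.27, adjusted p = 0.000267). It fell again at E17 against E13 (0.471 ± 0.182 against 30.9 ± 11.1 CPM; log2 change -5.99, SE 0.42, adjusted p = 2.94e-07). At P1 against E17 the log2 change was 0.41 (95% interval -1.09 to 1.91, adjusted p = 0.644).

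Over the same step, E17 against E13, 37.0% of all genes tested fell and 36.8% rose. Of the meningeal fibroblast markers 9 of 9 fell, with a median log2 change of -5.34. So did 7 of 7 radial glia and 6 of 6 cell cycle markers, while 10 of 10 interneuron and ventral telencephalon markers rose. Of 7 choroid plexus markers, 5 fell, with a median of -5.21, and the summed level of those 7 was 1.99 to 10.1 CPM at E17, against 39.1 to 391 CPM at E13, with none at 0. The part of any of these tissues or cells in the fall of Crabp2 or Aldh1a2 was not tested. Within E13 the choroid plexus sum was 39.1 CPM in library C, against 391 and 344 CPM in A and B, while Aldh1a2 was 5.86 CPM in C, against 5.5 and 5.05 CPM in A and B. At E13 against E11, 2 of the 9 meningeal markers fell and none rose, where 17.5% of all genes fell and 22.6% rose.

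**Figure D3:**
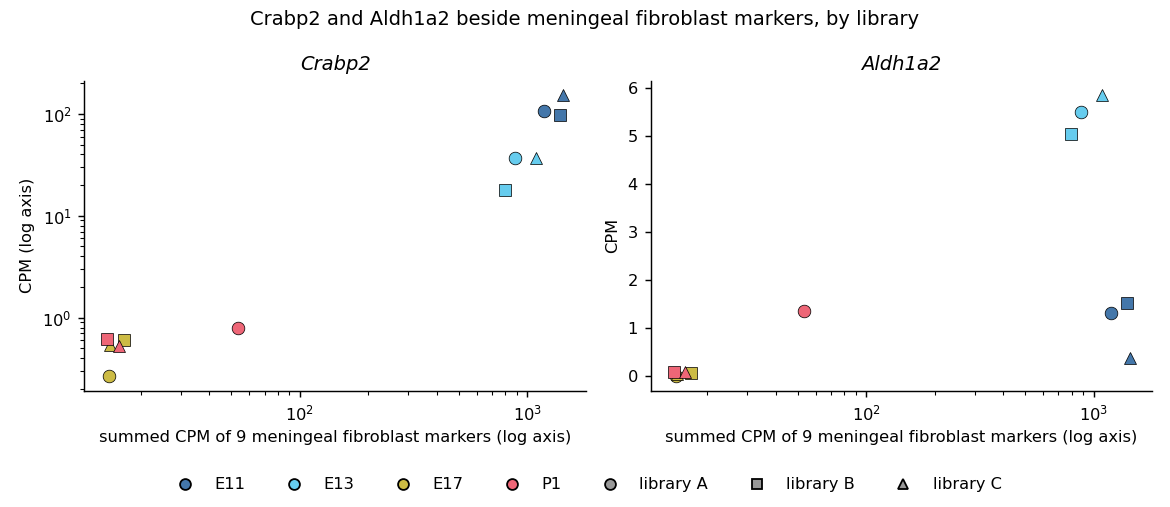
Crabp2 (left, log axis) and Aldh1a2 (right, linear axis) in CPM against the summed CPM of 9 meningeal fibroblast markers (log axis), 1 symbol per library, coloured by age. The E17 and P1 libraries have marker sums of 14.2 to 53.3 CPM, against 796 to 1440 CPM in the E11 and E13 libraries. P1 library A, at 53.3 CPM, also has the highest Aldh1a2 level of the E17 and P1 libraries.

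Crabp1 (ENSMUSG00000032291, chromosome 9), which binds retinoic acid in the cytoplasm, was highest at E11. It was at 8.39, 8.08 and 18.5 CPM in the E11 libraries, at 5.66, 6.23 and 5.52 CPM at E13, at 5.3, 0.537 and 1.48 CPM at E17 and at 1.23, 0.851 and 3.51 CPM at P1. The E11 libraries lay above all others, E13 lay above the rest, and E17 A stood near the E13 level. No neighbouring pair of ages passed the test. Crabp1 fell at P1 against E11 (1.86 ± 1.44 against 11.7 ± 5.93 CPM; log2 change -2.63, SE 0.71, adjusted p = 0.00596). Without P1 C that change was -3.46. It also fell at E17 against E11 (log2 change -2.30, SE 0.71, adjusted p = 0.0129), with -3.44 (adjusted p = 0.00112) without E17 A and -2.00 (adjusted p = 0.0561) without E17 C.

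Single libraries set the size of the Crabp1 values. At E17 against E13 the log2 change was -1.29 (adjusted p = 0.128), and it was -2.43 (adjusted p = 0.00958) without E17 A and -1.86 (adjusted p = 0.0369) with limma-voom. Over all alternatives it ran from -2.48 to -0.84, with adjusted p up to 0.311. At P1 against E13 the change of Crabp1 was -1.62 (adjusted p = 0.0587), and it passed the threshold under 7 alternatives, among them the libraries of those ages alone (-1.62, adjusted p = 0.0104) and the omission of P1 C (-2.45, adjusted p = 0.0195). Over all alternatives that change ran from -2.45 to -1.24, with adjusted p up to 0.174. The high E11 library, C, had an interneuron and ventral telencephalon sum of 46 CPM, against 7.65 and 4.01 CPM in E11 A and B. In E13 C that sum was 64.3 CPM, against 21.4 and 28.6 CPM in E13 A and B. Crabp1 in E13 C, at 5.52 CPM, was the lowest of E13. E17 A had a summed level of 10 striatal markers of 132 CPM, against 68.7 and 95.3 CPM in E17 B and C. The part of these cells in the Crabp1 level was not tested. Per kb of exon the 2 carriers summed to 105 ± 30.0, 30.6 ± 7.93, 3.4 ± 3.01 and 2.81 ± 1.73 CPM at the 4 ages, and the share of Crabp1 was 13.4%, 25.3%, 79.4% and 77.6%.

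Cyp26b1 (ENSMUSG00000063415, chromosome 6), the enzyme of this list that clears retinoic acid, rose before birth. It was at 1.09, 0.59 and 0.924 CPM in the E11 libraries, at 1.53, 3.51 and 2.1 CPM at E13, at 16.9, 15.3 and 22.9 CPM at E17 and at 13.5, 25.9 and 15.4 CPM at P1. The E11 range lay below the E13 range and both lay below the later libraries, while E17 and P1 overlapped. Cyp26b1 rose at E17 against E13 (18.4 ± 4.0 against 2.38 ± 1.02 CPM; log2 change 2.95, SE 0.33, adjusted p = 7.11e-06). At P1 against E17 the log2 change was -0.01 (95% interval -0.65 to 0.62, adjusted p = 0.973).

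The smaller rise of Cyp26b1 at E13 against E11 (log2 change 1.45, SE 0.42, adjusted p = 0.0178) depended on single libraries. It was 1.23 without E11 B (adjusted p = 0.0749), 1.49 without E11 C (adjusted p = 0.0503) and 1.06 without E13 B (adjusted p = 0.0905), and with limma-voom it was 1.40 (adjusted p = 0.114) and with no filter 1.44 (adjusted p = 0.0724). Per kb of exon Cyp26b1 was at 0.162, 0.445, 3.43 and 3.41 CPM at the 4 ages. In all 3 E17 libraries it stood above the summed dehydrogenases, at 2.86 to 4.28 against 0.0966 to 0.53 CPM per kb. It also stood above them in P1 A, B and C, by less in A and C, at 2.52, 4.84 and 2.87 against 2.41, 2.6 and 2.76 CPM per kb. The other genes of its family, Cyp26a1 and Cyp26c1, had 31 and 5 counts over the 12 libraries and were too low to test.

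Of the receptors, Rara (ENSMUSG00000037992, chromosome 11) differed little between replicates. It was at 14.9, 14.9 and 16.1 CPM in the E11 libraries, at 11.5, 11.4 and 12.1 CPM at E13, at 13.7, 13.7 and 14.4 CPM at E17 and at 19.4, 17.3 and 18.8 CPM at P1. No neighbouring ages overlapped. Rara fell at E13 against E11 (log2 change -0.39, SE 0.08, adjusted p = 0.00108) and rose at P1 against E17 (18.5 ± 1.12 against 14.0 ± 0.412 CPM; log2 change 0.40, SE 0.07, adjusted p = 0.00057). Its rise at E17 against E13 (0.26, SE 0.08, adjusted p = 0.00654) was 0.08 (adjusted p = 0.367) when libraries were scaled by size alone. Likewise its rise at P1 against E11 (0.27, adjusted p = 0.00356) was 0.04 (adjusted p = 0.588) under that scaling, which moved the median of all genes by -0.18 at E17 against E13 and by -0.23 at P1 against E11.

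Rarb (ENSMUSG00000017491, chromosome 14), the receptor whose promoter carries the repeat printed above, was highest at E11. It was at 7.27, 9.2 and 7.36 CPM in the E11 libraries, at 5.95, 4.72 and 6.33 CPM at E13, at 6.33, 1.29 and 2.58 CPM at E17 and at 3.41, 1.42 and 3.06 CPM at P1. The E11 libraries lay above the E13 libraries, and E17 A stood at the E13 level while E17 B and C lay lower, at or near the P1 levels. Rarb fell at P1 against E11 (2.63 ± 1.06 against 7.94 ± 1.09 CPM; log2 change -1.59, SE 0.45, adjusted p = 0.00657). No neighbouring pair of ages passed the test.

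Further apart, Rarb also passed at E17 against E11 (-1.25, adjusted p = 0.0247) and at P1 against E13 (-1.11, adjusted p = 0.0427). The first call was lost without E11 B (-1.13), without E17 B (-0.86) or without E17 C (-1.06), and also with no filter on low counts (adjusted p = 0.0887) or with the E11 and E17 libraries alone in the fit (adjusted p = 0.0689); the change was -1.99 without E17 A. That of Rarb at P1 against E13 was lost without E13 A (-1.07), E13 B (-1.22), E13 C (-1.02), P1 B (-0.77) or P1 C (-1.20), with RLE factors (adjusted p = 0.0509), with DESeq2 (adjusted p = 0.054) or with no filter (adjusted p = 0.138).

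E17 A also decided the Rarb values of that age. At E17 against E13 the log2 change was -0.76 (adjusted p = 0.152), and -1.49 (adjusted p = 0.00311) without E17 A. Over all alternatives it ran from -1.49 to -0.38, with adjusted p up to 0.402. At P1 against E17 it was -0.35 (adjusted p = 0.569), and 0.42 (adjusted p = 0.378) without E17 A. Among the 6 E17 and P1 libraries, the order of Rarb from low to high was E17 B, P1 B, E17 C, P1 C, P1 A and E17 A, and the striatal marker sum was 68.7 and 81.9 CPM in the lowest pair and 132 CPM in the highest library. At E11 and E13 Rarb was higher beside striatal sums of 28.1 to 30.4 CPM. The part of striatal cells in the Rarb level was not tested.

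The Rarb count is uncertain for another reason. On GRCm38, 34.1% of the exon bases of Rarb overlap Top2b on the opposite strand in the GENCODE annotation, and Top2b had 221786 counts over the 12 libraries, against 2011 for Rarb. Whether the counting used the strand is not given in the sources used here, and without strand the reads of the 2 genes cannot be told apart there. Nor is it given whether reads that lie in both genes were counted or set aside. The count of Rarb could therefore be too high or too low. Within E17, Top2b was at 567 CPM in A, 561 CPM in B and 603 CPM in C, and Rarb was highest in A. Across the ages E11, E13, E17 and P1, Top2b averaged 511, 572, 577 and 459 CPM. Both genes had their lowest mean at P1, but Rarb had its highest at E11 and Top2b at E17. The part of Top2b reads in the Rarb counts, or of Rarb reads set aside, was not tested.

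**Figure D4:**
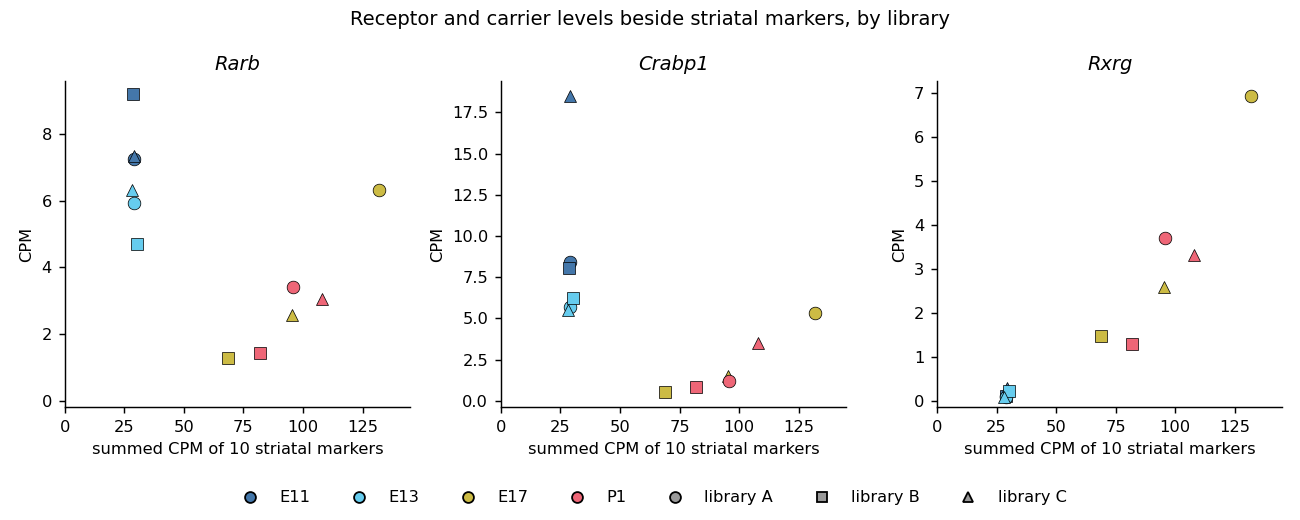
Rarb (left), Crabp1 (middle) and the retinoid X receptor gene Rxrg (right) in CPM against the summed CPM of 10 striatal markers, 1 symbol per library, coloured by age. In E17 A the marker sum is 132 CPM and all 3 genes have their highest level of the E17 and P1 libraries. At E11 and E13 the marker sums are 28.1 to 30.4 CPM while Rarb and Crabp1 are at 4.72 CPM or more.

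Rarg (ENSMUSG00000001288, chromosome 15) varied least around its mean over the 12 libraries. It was at 10.2, 9.99 and 13.4 CPM in the E11 libraries, at 9.44, 10.1 and 8.95 CPM at E13, at 12.7, 11.7 and 11.9 CPM at E17 and at 11.5, 10.8 and 11.3 CPM at P1. Across the 4 ages its adjusted p was 0.0487. Of the pairs of ages only E17 against E13 passed the test, the E17 libraries all lying above the E13 libraries. The log2 change at E17 against E13 was 0.35 (SE 0.11, adjusted p = 0.0107), and 0.17 (adjusted p = 0.188) with scaling by library size alone. At P1 against E13 the change of Rarg was 0.24 (adjusted p = 0.0615), and it passed with RLE factors (adjusted p = 0.0311), no filter (adjusted p = 0.0421), the compared ages alone (adjusted p = 0.0348), DESeq2 (adjusted p = 0.0287) and without P1 B (adjusted p = 0.0454). Over all alternatives it ran from 0.04 to 0.30, with adjusted p up to 0.742. At E17 against E11 it was 0.11 (adjusted p = 0.349), and 0.26 (adjusted p = 0.0214) without E11 C. At P1 against E11 the 95% interval of the log2 change was -0.24 to 0.24.

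Per kb of exon the 3 receptors summed to 7.65 ± 0.535, 5.97 ± 0.111, 6.69 ± 0.603 and 7.36 ± 0.533 CPM at the 4 ages. Rara made up 45.9%, 44.7%, 48.1% and 57.6% of that sum, and Rarb 19.8%, 18%, 9.26% and 6.66%. The receptor sum was 5.86 to 8.24 CPM per kb over all libraries, a narrow range beside that of the carriers, at 1.13 to 6.81 CPM per kb at E17, against 83.0 to 139 CPM per kb at E11.

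Counted together, 2 genes rose (Aldh1a2 and Cyp26b1) and 2 fell (Crabp2 and Rara) at E13 against E11. Of all genes tested, 22.6% rose and 17.5% fell at that step, 40.1% in all. At E17 against E13, 3 rose (Cyp26b1, Rara and Rarg) and 2 fell (Aldh1a2 and Crabp2), where 36.8% of all genes rose and 37.0% fell, 73.8% in all. At P1 against E17, 3 rose (Aldh1a1, Aldh1a3 and Rara) and none fell, where 24.0% of all genes rose and 25.9% fell, 49.9% in all. At P1 against E11, 4 rose (Aldh1a1, Aldh1a3, Cyp26b1 and Rara) and 3 fell (Crabp1, Crabp2 and Rarb), where 40.5% rose and 41.8% fell, 82.3% in all. At E17 against E11, 5 changed, against 79.6% of all genes, and at P1 against E13, 7 changed, against 79.2%. The CPM of the ages compared did not overlap for 7 of the 9 genes at E13 against E11 (51.8% of all genes), for 6 at E17 against E13 (76.1%), for 5 at P1 against E17 (62.4%) and for 7 at P1 against E11 (84.5%). The counts of changed members are near or below what these shares of 9 genes would give. Median log2 changes of the 9 were -0.39, 0.26 and 0.40 over the 3 successive steps, against 0.0 at E13 against E11 and -0.04 at E17 against E13 for all genes. Successive steps share the libraries of the age between them.

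The rest of the pathway was read from 7 lists with 54 further genes, 37 of which were tested. Of the 37, 11 rose and 4 fell at E13 against E11, 13 rose and 14 fell at E17 against E13, 7 rose and 10 fell at P1 against E17, and 16 rose and 12 fell at P1 against E11. The 15, 27, 17 and 28 changed genes of 37 are close to the shares over all genes, which were 40.1%, 73.8%, 49.9% and 82.3% in these comparisons. The median log2 changes of the 37 were 0.08, 0.18, 0.02 and 0.05 in that order, and those of all genes lay between -0.04 and 0.0.

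Of the retinol uptake and storage list, 5 of 10 genes were tested. At E17 against E13, 2 of the 5 fell and none rose, where 37.0% of all genes fell and 36.8% rose. Stra6, the cell-surface receptor that takes up retinol, fell at E17 against E13 (2.63 ± 0.398 against 10.1 ± 1.61 CPM; log2 change -1.93, adjusted p = 6.9e-08). Its rise at E13 against E11 (0.48, adjusted p = 0.0162) lost its call without E11 A (0.41), without E13 A (0.43) or without E13 C (0.41). Lpl, a lipase that helps cells take up retinyl esters from lipoproteins, rose at P1 against E17 (135 against 48.3 CPM; log2 change 1.49, adjusted p = 0.000427).

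Of the list of oxidoreductases acting on retinol or retinal, 9 of 15 were tested. All 9 changed at P1 against E11, 4 up and 5 down, where 82.3% of all genes changed. Of these, the call of Rdh10 (-0.33) was lost without E11 B or without any 1 of the P1 libraries, and that of Rdh13 (0.38) with library size alone (0.15). Rdh10, which makes the retinal used for retinoic acid in the embryo, fell at E17 against E13 (9.48 against 15.9 CPM; log2 change -0.75, adjusted p = 6.5e-05). Dhrs4 rose at E13 against E11 (log2 change 0.54, adjusted p = 0.00205) and then fell at E17 against E13 (11.5 against 43.7 CPM; log2 change -1.92, adjusted p = 4.6e-09) and at P1 against E17 (-0.92, adjusted p = 5.38e-05). Dhrs3, which reduces retinal back to retinol, went the other way. It was at 7.12, 7.45 and 6.8 CPM at E17, against 2.2, 1.6 and 2.1 CPM at E13, a log2 change of 1.85 (adjusted p = 2.35e-07). Rdh11 rose over the same step (0.86, adjusted p = 1.23e-08), and Adh5 fell at P1 against E11 (-0.35, adjusted p = 9.94e-05).

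Of the retinoid X receptors, the partners of the retinoic acid receptors, Rxra fell and Rxrg was higher at the later ages. Rxra was at 23.0, 23.3 and 24.8 CPM at E17, against 56.0, 47.6 and 56.0 CPM at E13 (log2 change -1.16, adjusted p = 9.03e-09), and fell further at P1 against E17 (-0.32, adjusted p = 0.00412). Rxrg was at 6.93 CPM in E17 A, 1.47 CPM in B and 2.58 CPM in C, at 1.29 to 3.70 CPM at P1, and at most 0.287 CPM in each E11 and E13 library. It held 3 to 9 counts in each E11 and E13 library and passed the filter on low counts only through the E17 and P1 libraries, so that a difference had to be seen. The log2 change of 4.74 at E17 against E13 (SE 0.76) is therefore given as a description. Of 10 striatal markers, 7 rose at that step and none fell, where 36.8% of all genes rose and 37.0% fell. The part of striatal cells in the Rxrg level was not tested. Per kb of exon the 3 genes summed to 29.7, 29.9, 26.5 and 27.3 CPM at the 4 ages, with Rxra at 12.8% of the sum at P1, against 39.0% at E11, and Rxrb at 82.8% at P1, against 60.7% at E11.

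Fabp5, another carrier that passes retinoic acid to the receptor Ppard, rose at E17 against E13 (242 against 174 CPM; log2 change 0.48, adjusted p = 2.79e-07), and Ppard fell at that step (16.7 against 24.2 CPM; -0.54, adjusted p = 2.11e-05). All 10 corepressor and coactivator genes changed at E17 against E13, 5 up and 5 down, where 73.8% of all genes changed. Of the 10, 1 fall, of -0.14, lost its call under 10 of 16 alternatives, and the rises of Ncoa2 (0.24) and Ncoa3 (0.30) lost theirs with library size alone (0.06 and 0.12). Nrip1, a corepressor, rose most (91.1 against 20.8 CPM; log2 change 2.14, adjusted p = 1.23e-09), followed by the coactivator Ncoa1 (187 against 79.5 CPM; 1.23, adjusted p = 3.77e-09). Gps2 fell at E17 against E13 (-0.49, adjusted p = 2.17e-06). At P1 against E17 Tbl1xr1 fell (-0.29, adjusted p = 0.000243).

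Of 12 genes known as retinoic acid targets, 8 were tested. They did not move one way. At E17 against E13, 2 rose and 2 fell, where 73.8% of all genes tested changed. At P1 against E11, 4 rose and 1 fell, where 82.3% of all genes changed. Tgm2, a transglutaminase induced by retinoic acid in many cells, fell at E17 against E13 (2.17 ± 0.556 against 13.2 ± 0.814 CPM; log2 change -2.62, adjusted p = 7.26e-07). Meis2 and Nr2f1, transcription factors of the developing forebrain, rose at E13 against E11 (0.85, adjusted p = 1.68e-05, and 0.68, adjusted p = 0.00314), and Meis2 fell at P1 against E17 (-0.72, adjusted p = 4.85e-05). Dusp6 fell at E13 against E11 (-0.89, adjusted p = 2.59e-05) and rose at E17 against E13 (0.74, adjusted p = 2.61e-05). Nr2f2 fell at P1 against E17 (-1.16, adjusted p = 0.015), but not past the threshold without E17 C (-0.81, adjusted p = 0.0635) or without P1 C (-1.12, adjusted p = 0.0553).

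The genes with the most similar course were found by the root mean square difference between mean-centred log2 CPM profiles over the 12 libraries, among up to 10926 genes of at least 5 CPM. This is a description of likeness in these libraries only. For Crabp2 they were Rspo1 (0.51), Lum (0.61) and Col3a1 (0.62), of which Lum and Col3a1 are on the meningeal marker list. For Aldh1a2 they were Cyp1b1 (0.99), Lox (1.13) and Dcn (1.20), of which Dcn is on that list. For Cyp26b1 they were the neuronal genes Cacnb4 (0.32), Phactr1 (0.33) and Mapk10 (0.34). These differences are to be read beside the root mean square spread of each member around its own mean. That spread was 3.41 for Crabp2, 2.35 for Aldh1a2 and 1.92 for Cyp26b1.

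For Rarb the nearest course was that of Ebf1 (0.39), which is on the striatal list but averaged 12.4, 7.13, 7.93 and 3.82 CPM at the 4 ages. Of the 10 genes of that list, by contrast, 7 rose and 2 fell at P1 against E11. Of all genes tested, 40.5% rose and 41.8% fell there. Next nearest to Rarb were Egflam (0.44) and Arhgap10 (0.46). For Crabp1 they were Zfp503 (0.61), Zfhx3 (0.67) and Tpm2 (0.68). Aldh1a3 was nearest to Spp1 (0.80), Kcnh1 (0.93) and Doc2a (0.93), and Aldh1a1 to Myo5b (0.74), Cpne8 (0.76) and Capn1 (0.76). Rara lay nearest to Minpp1 (0.06), Rhbdf1 (0.09) and Srm (0.10) and Rarg to Nlk (0.10), Tatdn1 (0.11) and Clpb (0.11). The profiles of those genes, like those of Rara and Rarg, varied little. The members' own spread was 0.88 for Rarb, 1.44 for Crabp1, 2.14 for Aldh1a3, 1.41 for Aldh1a1, 0.24 for Rara and 0.17 for Rarg.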

How the data were processed

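Poly(A)+ RNA of 12 cortices, 3 per age, was measured. The authors deposited raw read counts per Ensembl gene, with no normalization. Tools in the submitters' processing notes are DESeq2 1.8.1, HTSeq 0.5.3, SAMtools, STAR 2.5.2b and bcl2fastq 2.18. What each did, the build, the annotation and the use of strand are not stated in the sources used here. Symbols and exon lengths came from GENCODE M21 and matched 50376 of 50600 identifiers (99.56%).

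In R 4.3.3 with edgeR 4.0.16, filterByExpr (minimum count 10) kept 17847 genes. TMM factors (0.92 to 1.09) set the scale. All 12 libraries entered 1 quasi-likelihood fit (robust option) with a mean per age, and so share 1 estimate of spread per gene. Tests are two-sided with Benjamini-Hochberg adjustment over all genes. At 3 animals per age, counting error of genes with few counts and the spread between animals limit the precision. The procedure was tested on simulated data. Changes were planted there only in genes averaging over 1 CPM, so the simulation does not cover changes in genes below that level.

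Alternatives were RLE and upper-quartile factors, library size alone, no filter, 1 CPM in 3 libraries, the compared ages alone, a replicate block, DESeq2 1.42.0, limma-voom (limma 3.58.1), each library left out, and a joint omission of library C of E11, C of E13 and A of E17. The 9 genes, the pathway and marker lists and the tests were chosen with earlier results of these data known. All 9 genes are named. Pathway genes are named from those of at least 1 CPM at 1 age, mostly the 2 largest rises and falls of a list, and the 3 nearest genes are given for likeness. Results of some marker and pathway genes are not reported here.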

Additional observations from a re-analysis of the deposited data

How the results depend on the processing

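The calls of Crabp2 at E13 against E11 and of Crabp2, Cyp26b1 and Aldh1a2 at E17 against E13 held under every alternative run. Those of Aldh1a1 and Aldh1a3 at P1 against E17 also held wherever the gene was tested. The fall of Aldh1a2 remains a description, as its E17 libraries held too few counts to pass the filter. Members called at E13 against E11 numbered 4, and 2 with no filter and 2 when library C of E11, C of E13 and A of E17 were all left out. At E17 against E13 they numbered 5, and 3 with library size alone and 8 without those 3 libraries. Pathway genes called at E13 against E11 numbered 15, and 7 without the 3 libraries. The cause was not tested. The letters A, B and C did not pair the samples: correlations of deviations ran from -0.34 to 0.33 and were over 0.1 in 4 of 18 pairs. With the replicate block the members called at E13 against E11 were 4 and at E17 against E13 5, and the change of Crabp1 at P1 against E13 was -1.79 (adjusted p = 0.045).

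Values that changed sign were not calls. Aldh1a3 at E13 against E11 (0.40) was -0.38 with limma-voom, -1.33 without the 3 libraries and -1.49 to 0.89 with single libraries left out. Without the 3 libraries, Rarb at P1 against E17 was 0.40 and Crabp1 0.82; with single libraries left out they ran from -0.73 to 0.42 and from -1.17 to 0.84. Rarg at P1 against E11 was 0.04 with RLE factors, no filter and DESeq2, 0.02 with the compared ages alone and limma-voom, 0.0 with the replicate block and 0.15 without the 3 libraries, and -0.08 to 0.14 with single libraries left out. At E17 against E11, Rarg was -0.01 with upper-quartile factors and -0.10 with library size alone, and Aldh1a1 ran from -1.59 to 0.04. Cyp26b1 at P1 against E17 was 0.0 with RLE factors and the 1 CPM filter, 0.02 with upper-quartile factors, 0.01 with DESeq2 and -0.33 to 0.18 with single libraries left out.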
